A study of Mus musculus with 4 samples.

Results

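The 7 genes described here encode lipocalins that the liver releases into plasma: the orosomucoids Orm1, Orm2 and Orm3, the siderophore-binding Lcn2, Ambp, Apom and Rbp4. They were taken by gene symbol from a table of 54532 genes, without reference to their levels, and all 7 were found. Each had at least 26 counts in every library and passed the filter on low counts that left 13403 genes for testing. The major urinary proteins, a large mouse lipocalin family, were not included. The table held messenger RNA counts of 4 liver libraries of C57BL/6 mice, a common inbred strain, and the livers named below are these libraries. Of these, 2 came from mice labelled HFD, commonly short for high-fat diet (libraries HFD 334 and HFD 335). The other 2 came from mice given HFD together with I3A, an agent that the labels name only by this abbreviation (I3A 303 and I3A 305). All 4 livers therefore shared the HFD, and no liver without it was analysed here. The sources used here give no age, sex, dose or duration. The series title places the comparison in a model of fatty liver and asks about mitochondrial respiration.

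Lipocalins are small secreted proteins folded into a barrel with a pocket for a greasy or otherwise poorly soluble ligand. Orosomucoid, also called alpha-1-acid glycoprotein, binds drugs and steroids in plasma and is a textbook acute phase protein, made by hepatocytes in response to interleukin-6, interleukin-1 and glucocorticoids. Lcn2 binds bacterial siderophores and so withholds iron from microbes, and neutrophils store it in granules besides its production by hepatocytes. Ambp encodes a precursor cut into alpha-1-microglobulin, a heme-binding lipocalin, and bikunin, a protease inhibitor joined to heavy chains of the inter-alpha inhibitor. Apom travels on high-density lipoprotein and carries sphingosine-1-phosphate, and Rbp4 carries retinol from the liver in a complex with transthyretin.

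The libraries held between 15005668 and 18255623 counts, and 1 count was worth 0.0580 to 0.0650 CPM, the count scaled to a common library size, here by TMM. Hepatocyte markers were abundant in every library, with 10 genes summing to 91666 to 101402 CPM. HFD 335 also held 975 CPM of skeletal muscle markers, against 0.911 to 1.22 CPM in the other 3 libraries, and 193 CPM of exocrine pancreas markers, against 12.7 to 24.9 CPM. It was also the highest for markers of smooth muscle and mesothelium (201 CPM against 5.29 to 6.90), adipocytes (187 against 49.3 to 86.4) and erythroid cells (314 against 161 to 187). Markers of sinusoidal endothelium summed to 88.9 CPM in I3A 305 and to 206 to 339 CPM elsewhere, and markers of stellate cells and fibroblasts to 100 CPM in I3A 305 and to 301 to 587 CPM elsewhere. In whole liver, fewer cells of a type and less RNA per cell cannot be told apart. The part of these other tissues and cells in the differences below was not tested, beyond leaving out each library in turn.

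The 3 orosomucoids and Lcn2 stood higher in both I3A livers than in both HFD livers, whereas the groups overlapped for Ambp, Apom and Rbp4. Among all tested genes the groups did not overlap in the higher direction for 23.1%. In edgeR's quasi-likelihood test the same 4 members had an unadjusted p under 0.05 and 0 members were lower at that level, beside 6.66% of all tested genes higher and 6.24% lower. With library size alone as the scaling, those counts over all genes were 578 higher and 1329 lower, in place of 892 and 837. After Benjamini-Hochberg adjustment over all tested genes, edgeR called 0 genes (0% of those tested), members included, at 0.05. DESeq2 called the same 4 members, with 1.35% of genes called higher. The median log2 fold change of the 7 was 1.56, beside -0.010 over all tested genes. Without HFD 335 the count at an unadjusted p under 0.05 was 5, with Apom added (log2 fold change 0.41, edgeR unadjusted p = 0.0399), beside 5.35% of genes higher in that fit, and the median was 1.62. The labels do not say that each library came from its own animal, so these tests measure the spread between the libraries.

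**Figure D1:**
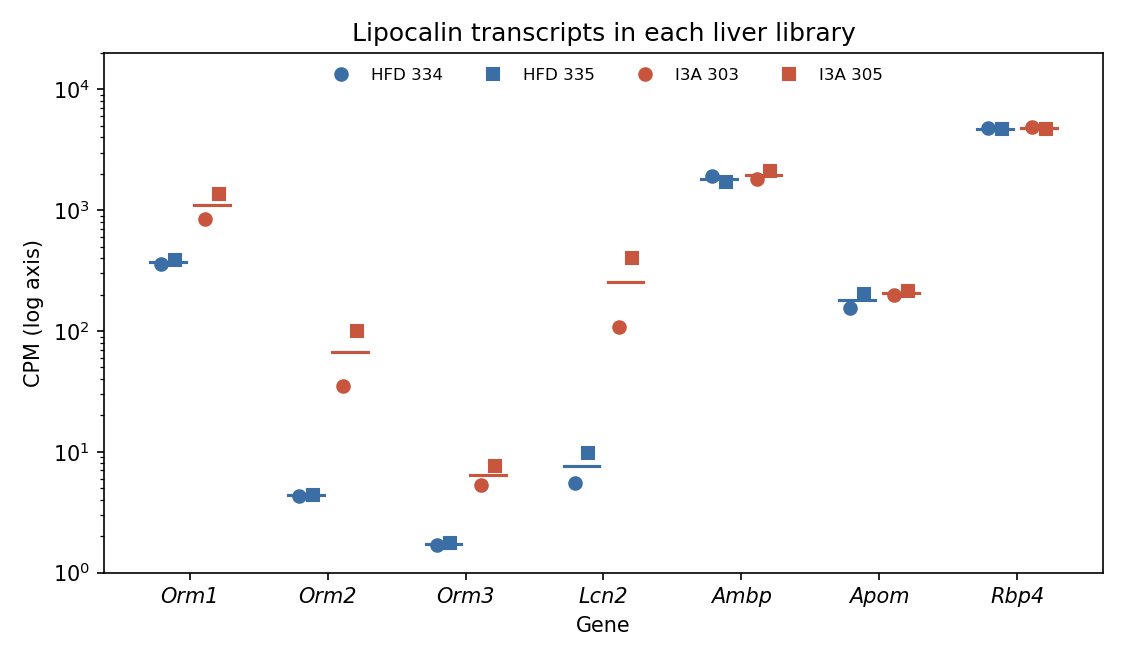
CPM on a log axis of the 7 lipocalin genes in each of the 4 libraries, HFD in blue and I3A in red, with a line at each group mean. Both red points lie above both blue points for Orm1, Orm2, Orm3 and Lcn2, and the points mix for Ambp, Apom and Rbp4.

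Orm1, Orm3 and Orm2 lie in this order on the plus strand of chromosome 4, within 21.3 kb of the GRCm38 build. Orm1 spans 63344560 to 63348163, Orm3 63356162 to 63359511 and Orm2 63362449 to 63365878. Each has 6 exons and a single annotated transcript, and no exon of another gene overlaps those of any of the 7 lipocalin genes in the GENCODE M21 annotation. The coding sequences are close copies: Orm1 and Orm2 are identical at 89.9% of aligned positions, Orm2 and Orm3 at 88.0% and Orm1 and Orm3 at 86.1%. The first 75 coding bases in GENCODE transcripts are shown because they let a reader see how far reads of the 3 genes can be told apart. Capitals mark the 15 positions at which the 3 genes are not all alike.

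Orm1: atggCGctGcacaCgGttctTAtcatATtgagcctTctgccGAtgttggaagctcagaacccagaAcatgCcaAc

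Orm2: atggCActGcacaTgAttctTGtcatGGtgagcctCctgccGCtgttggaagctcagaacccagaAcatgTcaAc

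Orm3: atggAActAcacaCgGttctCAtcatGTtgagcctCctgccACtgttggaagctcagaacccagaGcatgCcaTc

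Of all stretches of 50 bases in the Orm1 transcript, 20.4% also occur in Orm2 or Orm3. For Orm2 the share is 21.8% and for Orm3 it is 3.59%. With stretches of 100 bases the shares were 6.95% for Orm1 and Orm2 and 0% for Orm3, and with 150 bases 0% for all 3. The sources used here give neither the read length nor how reads that fit several genes were treated, so the split of counts between the copies is uncertain to that extent.

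Orm1 carried most orosomucoid reads in every liver. Its level was 356 CPM in HFD 334, 386 CPM in HFD 335, 839 CPM in I3A 303 and 1354 CPM in I3A 305. The group means were 371 ± 21.2 and 1096 ± 365 CPM (SD, n = 2 each), a 2.95-fold higher level in I3A livers. The HFD livers lay close together, and the I3A livers stood apart from them and from each other. The log2 fold change was 1.56 ± 0.24 (SE; edgeR adjusted p = 0.163, DESeq2 adjusted p = 5.09e-09), and 2.28% of tested genes had a larger change in either direction. Without I3A 305 it was 1.17, and without I3A 303 it was 1.88 with an edgeR adjusted p of 0.0285. The fit without I3A 303 called 0.215% of all tested genes higher, and that without HFD 334 called 0.268%.

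Orm2 had the largest relative difference of the 3 copies from a far lower level. It measured 4.30 and 4.43 CPM in HFD 334 and HFD 335, from 66 and 73 counts, and 34.9 and 99.7 CPM in I3A 303 and I3A 305, from 542 and 1717 counts. Means were 4.36 ± 0.095 CPM in HFD livers against 67.3 ± 45.9 CPM with I3A (SD, n = 2), a 15.4-fold higher level. The I3A livers differed 2.86-fold from each other, but the lower of them stood 7.87-fold above the higher HFD liver. The log2 fold change was 3.95 ± 0.54 (SE; edgeR adjusted p = 0.145, DESeq2 adjusted p = 1.32e-05), and 0.127% of tested genes had a larger one. Leaving out I3A 305 gave 2.99, and edgeR called Orm2 without HFD 334 (3.94, adjusted p = 0.0377) and without I3A 303 (4.53, adjusted p = 0.00961).

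Orm3 was the scarcest copy, with 26 and 29 counts in HFD 334 and HFD 335 and 82 and 132 counts in I3A 303 and I3A 305. In CPM these are 1.69 and 1.76 in HFD livers and 5.28 and 7.67 in I3A livers, which do not overlap. Its mean was 1.73 ± 0.048 CPM in HFD livers against 6.47 ± 1.69 CPM with I3A (SD, n = 2), 3.75-fold higher. The log2 fold change was 1.90 ± 0.32 (SE; edgeR adjusted p = 0.171, DESeq2 adjusted p = 0.00316), and it stayed between 1.60 and 2.16 with single libraries left out. Its counts are the smallest of the 7 genes in every library.

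The sum of the 3 orosomucoid genes depends less on how reads were split between them. It was 362 and 392 CPM in HFD 334 and HFD 335, and 879 and 1461 CPM in I3A 303 and I3A 305. The summed level was 3.10-fold higher in I3A livers (377 ± 21.3 against 1170 ± 412 CPM, SD, n = 2), with a log2 fold change of 1.63 ± 0.25 (SE) and an edgeR adjusted p of 0.164. It was 1.22 without I3A 305, and 1.97 without I3A 303, where the edgeR adjusted p was 0.0297. The makeup of the sum differed as well. Orm2 took 1.19% of orosomucoid counts in HFD 334 (95% Clopper-Pearson interval 0.918% to 1.51%, counting error only) and 1.13% in HFD 335 (0.886% to 1.42%). Its share was 3.97% in I3A 303 (3.65% to 4.31%) and 6.82% in I3A 305 (6.52% to 7.14%). Orm3 took 0.448% to 0.600% of orosomucoid counts in the 4 libraries, and its intervals overlapped between all of them. Orm2 thus took a larger share in both I3A livers, which also differed from each other beyond counting error. The mean share of Orm2 was 1.16 ± 0.040% in HFD and 5.40 ± 2.02% in I3A livers (SD, n = 2). A 2-sided exact permutation test over libraries gave p = 0.333, the smallest it can give with 2 a group.

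**Figure D2:**
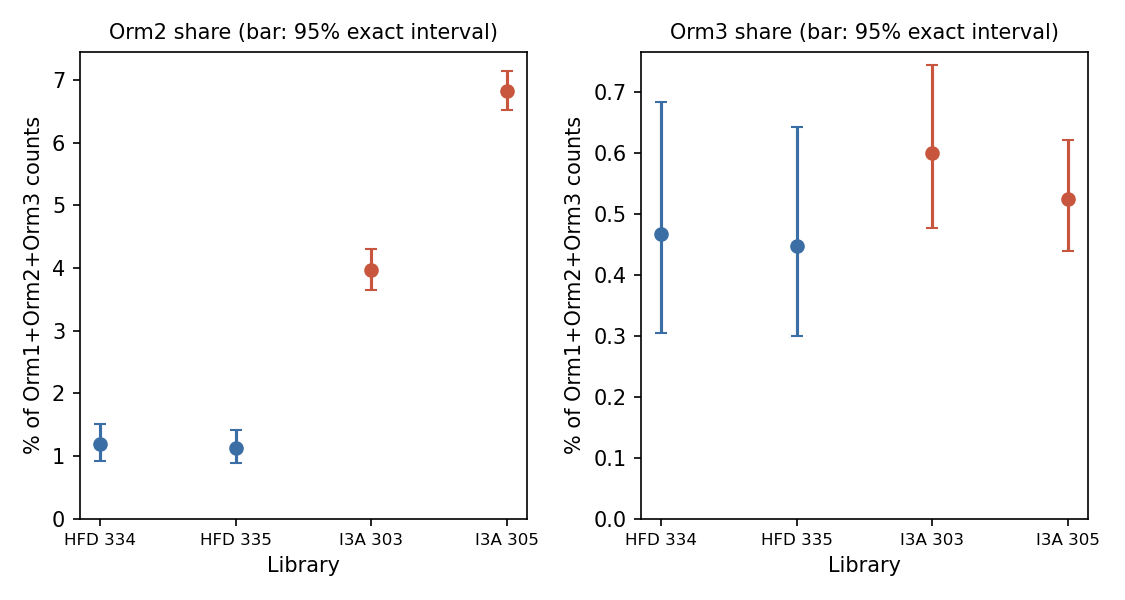
Share of Orm2 (left) and Orm3 (right) in the summed Orm1, Orm2 and Orm3 counts of each library, in percent, with 95% Clopper-Pearson bars that cover counting error only. Orm2 sits at 1.13% to 1.19% in HFD (blue) and at 3.97% and 6.82% in I3A libraries (red), while the Orm3 bars overlap; the vertical axes differ.

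Lcn2 lies on the minus strand of chromosome 2, from 32384633 to 32388252 (GRCm38). Its level was 5.53 CPM in HFD 334, 9.71 CPM in HFD 335, 108 CPM in I3A 303 and 401 CPM in I3A 305, from 85, 160, 1686 and 6897 counts. Every I3A value lay far above both HFD values, and spreads were wide in both groups, 1.75-fold between the HFD livers and 3.69-fold between the I3A livers. The ratio of I3A 303 to HFD 335, the closest livers of different groups, was 11.2. Its log2 fold change came to 5.06 ± 0.72 (SE; edgeR adjusted p = 0.157, DESeq2 adjusted p = 7.23e-06), and 0.0597% of tested genes had a larger one. This was 3.82 without I3A 305 and 5.73 without I3A 303. edgeR called Lcn2 in the latter fit (adjusted p = 0.0285) and without HFD 334 (4.73, adjusted p = 0.0413).

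Markers of neutrophils, which also hold Lcn2, were low in all libraries. The 14 markers summed to 3.22 to 4.94 CPM across the 4 livers, 4.36 and 3.22 CPM in HFD livers against 3.80 and 4.94 CPM with I3A. Of them only 2 passed the filter, and of these 1 was higher and 0 were lower in both I3A livers, beside 23.1% and 22.5% of all tested genes. Among the untested markers, Retnlg and Camp were lower in both I3A livers, with at most 4 counts in any library. Each had 1 count in HFD 334 and 1 count in I3A 305, so their order there comes from the scaling alone. None of the 14 markers was at 0 in all libraries. The most abundant was Csf3r, the receptor of granulocyte colony-stimulating factor, with 35 and 21 counts in HFD and 25 and 33 counts in I3A libraries. The granule gene Ltf had 0, 0, 0 and 4 counts in HFD 334, HFD 335, I3A 303 and I3A 305, Ngp 0, 2, 0 and 3, and Camp 1, 4, 0 and 1, where 3 counts are at most 0.2 CPM. S100a8 had 9 and 2 counts in HFD and 14 and 3 counts in I3A libraries, and S100a9 had 9 and 9 against 10 and 23. In CPM, not scaled for gene length, Lcn2 exceeded the summed neutrophil markers 81.1-fold in I3A 305 and 28.6-fold in I3A 303. The ratios were 1.27-fold and 3.02-fold in HFD 334 and HFD 335. These ratios move mainly with Lcn2 itself, since the marker sums ranged only from 3.22 to 4.94 CPM. Which cells the Lcn2 reads came from was not tested. Of 12 markers of Kupffer cells and macrophages, 8 were higher in both I3A livers and 1 was lower, beside 23.1% and 22.5% of all tested genes. At an unadjusted p under 0.05 in edgeR 3 were higher and 0 lower, beside 6.66% and 6.24% of all tested genes. These markers summed to 184 and 181 CPM in HFD livers against 228 and 224 CPM with I3A.

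Promoter sequences were found in the RefSeq table of GRCm38.p6 for 6 of the 7 genes, Orm1 being without an entry. Those of Orm2, Orm3 and Lcn2 are shown since these genes stood higher together. Each is the 250 bases before the annotated start, read 5′ to 3′ on the gene's strand. The RefSeq start of Lcn2 lies inside the gene's span in the deposited table, given above. Capitals mark matches, on either strand, to any of 5 motifs. The letters searched were TTNNGNAA for C/EBP factors and GGGNNNNNCC for NF-kappaB. For STAT factors they were TTCNNNGAA, for an arm of the glucocorticoid response element AGAACA, and for the TATA box TATAAA.

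Orm2, chr4:63362199-63362448, plus strand: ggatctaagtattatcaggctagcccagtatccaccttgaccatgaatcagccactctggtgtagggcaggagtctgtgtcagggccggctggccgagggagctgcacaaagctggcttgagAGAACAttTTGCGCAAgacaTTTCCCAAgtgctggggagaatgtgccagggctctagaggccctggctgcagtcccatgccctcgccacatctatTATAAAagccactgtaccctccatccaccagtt

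Orm3, chr4:63355908-63356157, plus strand: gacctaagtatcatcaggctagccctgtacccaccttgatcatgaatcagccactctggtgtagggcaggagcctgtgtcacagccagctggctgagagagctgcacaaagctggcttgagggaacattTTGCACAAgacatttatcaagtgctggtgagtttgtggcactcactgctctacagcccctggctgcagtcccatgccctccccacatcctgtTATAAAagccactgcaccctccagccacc

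Lcn2, chr2:32387740-32387989, minus strand: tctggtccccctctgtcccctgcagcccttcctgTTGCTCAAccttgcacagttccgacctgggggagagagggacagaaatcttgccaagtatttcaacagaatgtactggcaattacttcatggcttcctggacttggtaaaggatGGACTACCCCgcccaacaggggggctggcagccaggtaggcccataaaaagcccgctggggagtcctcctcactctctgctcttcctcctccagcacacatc

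The Orm2 and Orm3 promoters were identical at 85.5% of aligned positions. Both hold a C/EBP match, TTGCGCAA at 120 to 113 bases before the start in Orm2 and TTGCACAA at 121 to 114 bases in Orm3, and both hold a TATA box. Orm2 alone of the pair holds the AGAACA match, which ends 2 bases before that C/EBP match, and a second C/EBP match, TTTCCCAA. Lcn2 holds a C/EBP match, TTGCTCAA, and an NF-kappaB match, GGACTACCCC, with no match to the other 3 motifs. Members whose groups overlapped hold matches too. Rbp4, which has 2 RefSeq starts, holds C/EBP matches before both of them and NF-kappaB matches and a TATA box before one, Ambp holds an AGAACA match and an NF-kappaB match, and Apom holds NF-kappaB matches. These short motifs are common: of 32851 promoters of the same length, 36.8% hold the C/EBP letters, 7.02% the STAT letters, 16.1% AGAACA, 45.8% the NF-kappaB letters and 12.4% TATAAA. A match is a description of the sequence and not a site of binding.

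Ambp lies on the same chromosome as the orosomucoids, from 63143275 to 63154799 on the minus strand, 190 kb from Orm1. It measured 1934 and 1702 CPM in HFD 334 and HFD 335, and 1796 and 2112 CPM in I3A 303 and I3A 305. The groups overlapped, with means of 1818 ± 164 and 1954 ± 224 CPM (SD, n = 2). I3A livers differed from HFD livers by 0.10 ± 0.14 on the log2 scale (SE; edgeR adjusted p = 0.795), and the sign turned without I3A 305 (-0.020). A difference of this size was within the spread between libraries.

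Genes of the inter-alpha inhibitor heavy chain family, not all of whose products are joined to bikunin, differed more than Ambp itself. All 5 heavy chain genes were tested, and both I3A livers stood above both HFD livers for each of them, beside 23.1% of all tested genes. At an unadjusted p under 0.05 in edgeR 4 were higher, beside 6.66% of all tested genes. The median log2 fold change of the 5 was 0.66, against -0.010 over all tested genes. Itih3 measured 826 and 877 CPM in HFD livers against 1863 and 2685 CPM with I3A (log2 fold change 1.42 ± 0.20, SE), and Itih4 1045 and 1094 against 1975 and 3297 CPM (1.30 ± 0.25). Both are known acute phase proteins. Itih2 (0.63 ± 0.16) and Itih1 (0.35 ± 0.12) stood higher by less. DESeq2 called 3 of the 5 higher, beside 1.35% of all tested genes, and edgeR, adjusted over all genes, called 0, as over all tested genes. Without HFD 335 the median of the 5 was 1.31.

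Rbp4, on the minus strand of chromosome 19 from 38116620 to 38125321, was the most abundant member and the most even. It measured 4756 and 4702 CPM in HFD 334 and HFD 335, and 4852 and 4713 CPM in I3A 303 and I3A 305. All 4 values lay within the same narrow range, with means of 4729 ± 38.2 and 4782 ± 98.5 CPM (SD, n = 2). On the log2 scale the difference was 0.016 ± 0.13 (SE; edgeR adjusted p = 0.971), and 95.4% of tested genes had a larger one in size. With library size alone as the scaling it was -0.073.

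Ttr, transthyretin, the partner of Rbp4 in plasma, was lower in both I3A livers than in both HFD livers, as were 22.5% of all tested genes. It measured 4098 and 3575 CPM in HFD livers against 3409 and 3052 CPM with I3A, a log2 fold change of -0.25 ± 0.14 (SE; edgeR adjusted p = 0.505). Of 16 genes of retinol carriage and storage, 12 were tested (median -0.24). At an unadjusted p under 0.05 in edgeR 2 were higher and 2 lower, beside 6.66% and 6.24% of all tested genes. The higher were Rdh11, a retinal reductase (0.51 ± 0.15), and Dgat1, which makes triglyceride and retinyl esters (0.31 ± 0.12). The lower were Aldh1a1, a retinal dehydrogenase (-0.35 ± 0.11), and Dhrs3, which reduces retinal to retinol (-0.23 ± 0.093). Without HFD 335 the median of the 12 was -0.28. None of the 12 passed edgeR's test adjusted over all genes.

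Apom, on the minus strand of chromosome 17 from 35128997 to 35132050, measured 156 CPM in HFD 334 and 202 CPM in HFD 335, and 200 CPM in I3A 303 and 215 CPM in I3A 305. HFD 334 was the low library, and HFD 335 lay between the I3A livers. The log2 fold change was 0.22 ± 0.15 (SE; edgeR adjusted p = 0.570). It was 0.053 without HFD 334, 0.41 without HFD 335, 0.16 without I3A 305 and 0.28 without I3A 303. Apoa1, the main protein of high-density lipoprotein, measured 12763 and 12737 CPM in HFD livers against 14705 and 13990 CPM with I3A (0.17 ± 0.14, edgeR adjusted p = 0.655).

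Of 8 transcription factors known to act on Apom, 0 were higher and 3 lower at an unadjusted p under 0.05 in edgeR, beside 6.66% and 6.24% of all tested genes. Their median log2 fold change was -0.054, and -0.30 without HFD 335. Foxa2 measured 27.5 and 42.6 CPM in HFD livers against 21.9 and 19.6 CPM with I3A (-0.76 ± 0.22, SE). Foxo1 (-0.41 ± 0.12) and Jun (-0.93 ± 0.26) were also lower.

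**Figure D3:**
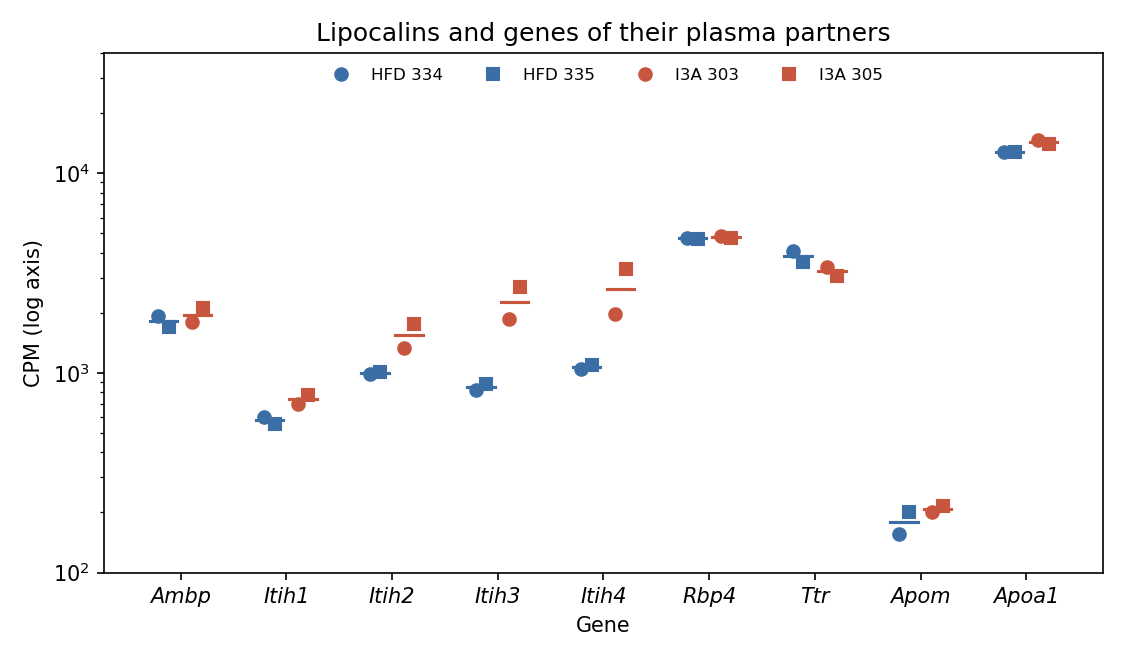
CPM on a log axis of Ambp with the heavy chain genes Itih1 to Itih4, of Rbp4 with Ttr, and of Apom with Apoa1, in each library (HFD blue, I3A red, lines at group means). The heavy chain genes separate the groups, most widely Itih3 and Itih4, while Ambp, Rbp4 and Apom do not.

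The levels of the members were compared per kilobase of their longest protein-coding transcript, as CPM per kb. In HFD livers the order was Rbp4 (4073 ± 32.9, SD, n = 2), Ambp (1434 ± 129), Orm1 (479 ± 27.4), Apom (177 ± 32.2), Lcn2 (8.33 ± 3.23), Orm2 (5.63 ± 0.122) and Orm3 (2.23 ± 0.062). Lcn2 and Orm2 were neighbours within the spread of Lcn2. In I3A livers Rbp4 stayed first (4119 ± 84.9), but Ambp (1541 ± 176) and Orm1 (1415 ± 470) no longer differed beyond their spread, and in I3A 305 Orm1 stood above Ambp. Lcn2 (278 ± 226), Apom (205 ± 10.6) and Orm2 (86.8 ± 59.2) followed, with Lcn2 and Apom within the spread of Lcn2, and Orm3 was last (8.37 ± 2.19). The table's own length for Lcn2, 2623 bases, is longer than its main transcript of 915 bases. With it Lcn2 came to 2.90 ± 1.13 CPM per kb in HFD and 97.0 ± 78.8 CPM per kb in I3A livers, which places it below Orm2 in the former and below Apom in the latter.

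All 7 genes together took 0.739% and 0.725% of counts in HFD 334 and HFD 335, and 0.778% and 0.839% in I3A 303 and I3A 305. Rbp4 made up 65.9% and 67.1% of those counts in HFD and 61.9% and 52.9% in I3A livers. The orosomucoids went from 5.02% and 5.60% in HFD to 11.2% and 16.4% in I3A livers, and Lcn2 from 0.0767% and 0.139% to 1.38% and 4.50%.

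**Figure D4:**
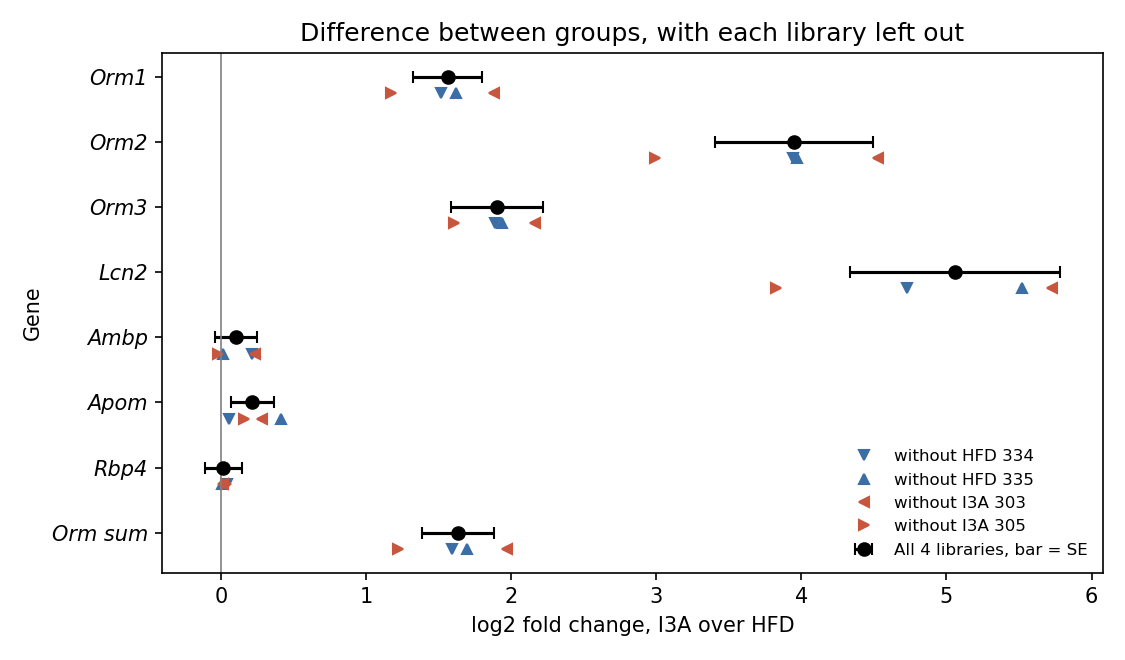
Log2 fold change of I3A over HFD for each gene and for the orosomucoid sum, with its SE from all 4 libraries (black) and the value with each library left out (triangles). Orm1, Orm2, Orm3, Lcn2 and the sum stay above 1 in all of these fits, with the smallest values without I3A 305, and Ambp, Apom and Rbp4 stay below 0.5.

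Genes that neighbour the orosomucoids did not share a direction. Within 300 kb on either side of the 3 genes 21 genes are listed, and 11 were tested, the 3 orosomucoids and Ambp among them. The nearest tested neighbours were Akna, 1.25 kb beyond Orm2 (log2 fold change -0.71 ± 0.38, SE), and Col27a1, 9.57 kb before Orm1 (-1.22 ± 0.54), and neither passed at an unadjusted p of 0.05. Tmem268, a membrane protein gene 193 kb beyond Orm2 at 63558781 to 63586357, measured 3.58 and 3.82 CPM in HFD livers against 7.98 and 13.1 CPM with I3A (1.51 ± 0.30, edgeR adjusted p = 0.214). Atp6v1g1, which lies between Tmem268 and the orosomucoids, measured 0.013 ± 0.13.

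**Figure D5:**
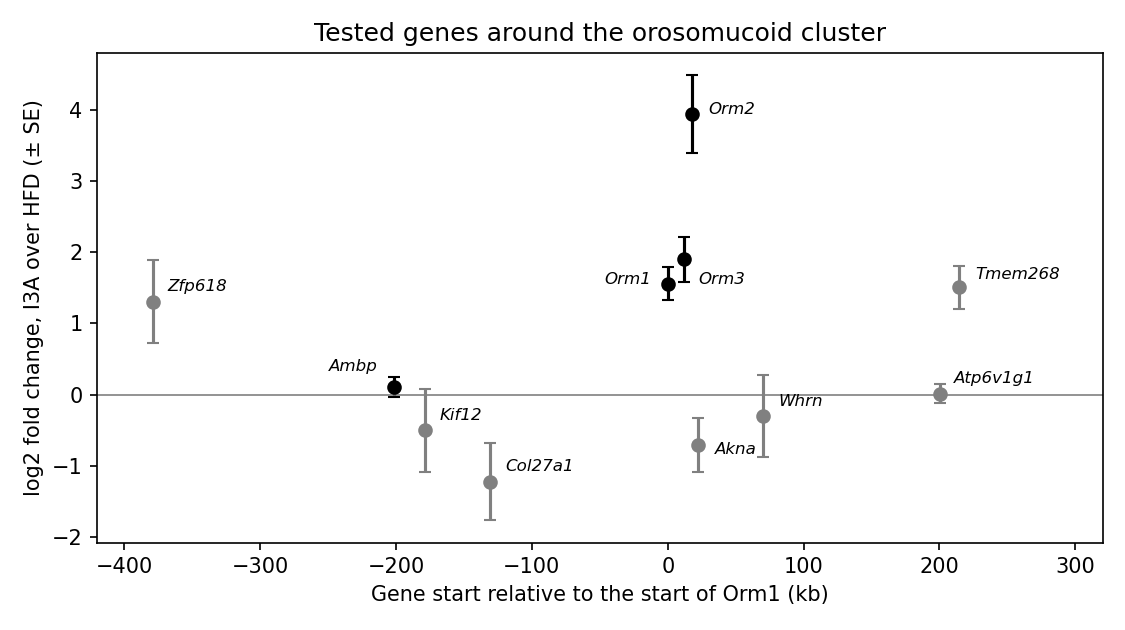
Log2 fold change of I3A over HFD (± SE) of the 11 tested genes within 300 kb of the orosomucoid cluster, by the distance of their start from that of Orm1 in kb. Orm1, Orm2, Orm3 and, at the right, Tmem268 stand above 1, as does Zfp618 with a wide error at the left, and the genes between them lie near or below 0.

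The genes most like each member in their pattern over the 4 libraries were named by the distance between log2 CPM profiles, each centred on its own mean, among 10490 genes whose CPM averaged 2 or more over the 4 libraries. With 4 libraries this describes the libraries only. Closest to Orm1 was Tmem268 (distance 0.0886), which lies 193 kb beyond Orm2 with other tested genes between. Next came Serpina3n, a protease inhibitor of the acute phase (0.117), and Itih3 (0.174). For Orm2 the closest were the metallothionein Mt1 (0.825), Apcs, the serum amyloid P component (1.05), and Mt2 (1.10). Mt2 reached that mean only through I3A 305, with 0.390 and 0.364 CPM in HFD livers and 1.48 and 6.27 CPM with I3A. Mt1 measured 24.5 and 44.2 CPM in HFD livers against 156 and 587 CPM with I3A. For Orm3 they were the uptake transporter Slco1a4 (0.195), the stress-responsive gene Ddit4 (0.225) and Orm1 (0.314). For Lcn2 they were Saa3, a serum amyloid A gene (0.936), Orm2 (1.24) and Saa1 (1.39). Saa3 measured 3.58 and 3.22 CPM in HFD livers against 32.5 and 220 CPM with I3A, with I3A 305 the higher as for Lcn2. Ambp, Apom and Rbp4 each had a gene within 0.02 and all 3 of their closest within 0.04.

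Other genes of the acute phase, not all of them for plasma proteins, stood higher in I3A livers for the most part. Of 24 such genes, 15 were higher and 2 lower at an unadjusted p under 0.05. Their median was 0.99, and 1.07 without HFD 335. Over all tested genes, 6.66% were higher and 6.24% lower at that level in edgeR. Saa1, Saa2, Fgl1 and Itih3 were among the higher of the 24, and Saa4 and Steap4 were the lower. This list was chosen with earlier results of these libraries known, and it holds Itih3 and Itih4 of the heavy chains as well. Of 22 genes of the cytokine and glucocorticoid signalling that drives orosomucoid and Lcn2 transcription, 2 were higher and 1 lower at that level. Their median was -0.10, and -0.082 without HFD 335. Both I3A livers stood above both HFD livers for 4 of the 22 and below them for 10. Over all tested genes those shares were 23.1% and 22.5%. Stat3, the transcription factor downstream of interleukin-6, measured 97.5 and 93.3 CPM in HFD livers against 117 and 185 CPM with I3A (0.66 ± 0.22, SE). Cebpd, a C/EBP factor induced in the acute phase, measured 11.1 and 13.7 CPM in HFD livers against 21.1 and 26.3 CPM with I3A (0.94 ± 0.18). Il1r1, the interleukin-1 receptor, was lower, at 97.5 and 96.8 CPM in HFD livers against 39.1 and 58.4 CPM with I3A (-0.99 ± 0.20). Il1rap, its partner chain, measured 172 and 160 CPM in HFD livers against 147 and 120 CPM with I3A (-0.32 ± 0.13). It, Cebpb (0.20 ± 0.18), the STAT3 feedback gene Socs3 (-0.45 ± 0.36) and the glucocorticoid receptor gene Nr3c1 (-0.24 ± 0.13) did not pass at an unadjusted p of 0.05.

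The most abundant receptor gene of the lipocalins was Stra6l, a liver receptor of Rbp4, at 145 and 114 CPM in HFD livers against 133 and 170 CPM with I3A (0.23 ± 0.17, SE). Of 6 receptor genes 4 were tested and 0 passed at an unadjusted p of 0.05 in edgeR in either direction. Over all tested genes 6.66% were higher and 6.24% lower at that level. Lmbr1l, another of these receptor genes, measured 11.1 and 11.2 CPM in HFD livers against 14.8 and 13.7 CPM with I3A (0.36 ± 0.15, edgeR adjusted p = 0.404). Its groups did not overlap, as for 23.1% of all tested genes in that direction. Slc22a17, a receptor of Lcn2, had 12 and 12 counts in HFD and 9 and 14 counts in I3A libraries, and Lrp2, the endocytic receptor megalin, 18 and 12 against 13 and 55. Of 17 further lipocalin genes 14 were listed and 2 tested. C8g, the lipocalin chain of complement C8, measured 322 and 306 CPM in HFD livers against 296 and 269 CPM with I3A (-0.15 ± 0.10, edgeR adjusted p = 0.573), and Obp2a -0.48 ± 0.52.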

How the data were processed

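Liver RNA was taken up in Trizol and sequenced from NEBNext Ultra libraries, per the labels' protocols. HISAT2 and featureCounts 1.5.0-p3 were used on GRCm38, per the submitters' processing notes; the sources used here give no strand setting, annotation release or treatment of reads fitting several genes. The authors deposited raw counts per gene. Libraries were grouped by title, 2 HFD and 2 I3A, with no shared replicate numbers. Libraries of a group were checked for being 1 library deposited more than once; their counts disagreed beyond sampling noise (over genes, a chi-square divided by its degrees of freedom was 30.1 between the HFD libraries and 29.5 between those of I3A), which does not show that they came from separate animals. Each counted as 1 replicate.

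Counts were tested in edgeR 4.0.16 (R 4.3.3) with filterByExpr (minimum 10 counts), TMM and a quasi-likelihood fit on group, 2-sided, adjusted by Benjamini-Hochberg over all tested genes. SE is the log2 fold change over the square root of F. log2 CPM used a prior count of 2. DESeq2 1.42.0, limma-voom (limma 3.58.1), other scalings and filters, a robust fit and each library left out were alternatives; with 1 library left out, the lone library is assumed to vary like the others. Tests were tried on simulated data. The members, lists and naming rule (all members, the 4 smallest unadjusted p per list, a set of fixed genes, and the 3 closest patterns per member) were chosen with earlier results of these data known; Apoa1, Csf3r, Ltf, Ngp, Camp and the genes near the orosomucoids were named after their values were seen, and 1 gene that the rule names is not reported here. The counts and medians without HFD 335 and the member counts per alternative were added after seeing the data.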

Additional observations from a re-analysis of the deposited data

How the results depend on the processing

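The 4 higher members kept their direction under all 12 alternatives. No paired analysis was possible because the groups share no replicate numbers. edgeR called 0 genes with other scalings, the stricter filter, the robust fit and limma-voom, but 619 without the filter and 335 with DESeq2, and 0 to 343 with single libraries left out. At an unadjusted p under 0.05 there were 1729 genes, 2610 without the filter and 786 to 2138 with libraries left out. The unfiltered fit and DESeq2 also called Orm1 (log2 fold change 1.57 and 1.56), Orm2 (3.95 and 3.95), Orm3 (1.91 and 1.91), Lcn2 (5.07 and 5.06) and the orosomucoid sum (1.64 and 1.63). Leaving out libraries gave 1.17 to 1.88 for Orm1, 2.99 to 4.53 for Orm2, 1.60 to 2.16 for Orm3, 3.82 to 5.73 for Lcn2, 1.22 to 1.97 for the sum, -0.020 to 0.23 for Ambp, 0.053 to 0.41 for Apom and 0.0081 to 0.037 for Rbp4. Rbp4 measured -0.073 with library size alone, where the median over all tested genes was -0.10 in place of -0.010. Adjusted p ranged from 5.09e-09 to 0.260 for Orm1, 8.41e-07 to 0.256 for Orm2, 0.00316 to 0.762 for Orm3 and 8.05e-07 to 0.298 for Lcn2. Orm3, with 26 and 29 counts in HFD libraries, is the member most limited by depth.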

Other observations

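Of 16 genes of sphingosine-1-phosphate, which Apom carries, and of high-density lipoprotein, 14 were tested. At an unadjusted p under 0.05 in edgeR 1 was higher and 0 lower, beside 6.66% and 6.24% of all tested genes. The median log2 fold change was 0.059, and 0.031 without HFD 335. The higher gene was Sphk2, a kinase that makes sphingosine-1-phosphate, at 58.8 and 53.6 CPM in HFD and 72.8 and 78.9 CPM in I3A livers (0.43 ± 0.10, SE; edgeR adjusted p = 0.252). Its exporter Spns2 measured 0.29 ± 0.12 and its receptor S1pr1, an endothelial gene, -0.35 ± 0.16. S1pr3 had 41 and 105 counts in HFD and 45 and 11 counts in I3A libraries, lowest in I3A 305, the library with the lowest sum of endothelial markers; the part of that in its value was not tested.

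Genes of iron handling were set beside Lcn2 because it binds iron-laden siderophores. Of 13 tested, 1 was higher and 1 lower at that level (median 0.0094), beside 6.66% and 6.24% of all tested genes. Hfe, part of the iron sensing of hepatocytes, measured 32.9 and 37.9 CPM in HFD and 46.3 and 49.7 CPM in I3A livers (0.44 ± 0.12, SE). Hamp2, a copy of the hepcidin gene, had 18 and 32 counts in HFD and 8 and 5 counts in I3A libraries (-1.94 ± 0.57). The far more abundant Hamp, the hepcidin gene itself, went the other way with overlapping groups. It measured 359 and 290 CPM in HFD against 341 and 519 CPM in I3A livers (0.41 ± 0.22). Tfr2, a transferrin receptor of hepatocytes, measured 0.25 ± 0.11 and the iron exporter Slc40a1 -0.37 ± 0.20. Hamp2 is a close copy of Hamp, and reads of the pair may have been split between them.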
